A study of Mus musculus with 7 samples.

Results

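In mouse liver, 1872 Rad21 peaks lay at promoters and shared no base with a CTCF peak. Rad21 is a subunit of cohesin, and such sites are called cohesin-non-CTCF (CNC) peaks below. The peaks were selected on the Rad21 and CTCF peak calls and on the position of the summit: each was an autosomal Rad21 peak with 0 bp of overlap with any CTCF peak and with its summit within 1 kb of the transcription start of a protein-coding gene (build mm9). They made up 1872 of 67369 Rad21 peaks, and 12.4% (95% Wilson interval 11.9 to 12.9) of the 15118 autosomal CNC peaks. Of the 14560 autosomal Rad21 peaks at promoters, 12.9% (12.3 to 13.4) were CNC and the other 12688 overlapped a CTCF peak (co-bound peaks). Per chromosome the CNC share ran from 10.5% on chromosome 5 to 16.4% on chromosome 10.

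The chromatin came from livers of male CD-1 (ICR) mice of 8 weeks of age, with no treatment and no altered allele named, and its nuclei were fixed with formaldehyde. Chromatin immunoprecipitation and sequencing (ChIP-seq) was done with an antibody to Rad21 in 3 libraries and with an antibody to CTCF in 4 libraries. Reads of each factor were pooled before peaks were called, so the values below are those of 1 pooled Rad21 list and 1 pooled CTCF list of 76683 peaks, with no error between livers. Every interval covers counting error only. Neighboring peaks are not independent and are no replicates of a liver, so p-values over peaks are too small. Whole liver holds several cell types, and a peak shared by few cells cannot be told apart from a weak peak in many.

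Cohesin is a ring-shaped complex of Smc1, Smc3, Rad21 and a Stag subunit that holds DNA strands together and extrudes chromatin loops. CTCF is a zinc-finger protein that binds a long motif and halts cohesin, so most strong cohesin peaks sit on CTCF. Cohesin is loaded with the help of Nipbl, and CNC sites in liver and other tissues are known at active promoters and enhancers, together with tissue-specific transcription factors.

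The base composition of these promoters covered a wide range, and the sequences at the summits show both ends of it. Among the strongest CNC peaks and those at the listed liver and regulatory genes, 16 had a 61-bp summit window outside annotated exons. The 4 with the lowest CpG content over the surrounding 301 bp are printed first, 5′ to 3′ on the strand of the gene, with each CG dinucleotide in capitals. They lay at Hgd chr16:37579942-37580002 (plus strand), F10 chr8:13038275-13038335 (plus strand), Hlf chr11:90243478-90243538 (minus strand) and Arg1 chr10:24647034-24647094 (minus strand). The genes encode homogentisate dioxygenase of tyrosine breakdown, coagulation factor X, a clock-output transcription factor and the urea cycle enzyme arginase.
Hgd: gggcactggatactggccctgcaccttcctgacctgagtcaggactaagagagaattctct
F10: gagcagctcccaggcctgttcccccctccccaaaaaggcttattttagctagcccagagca
Hlf: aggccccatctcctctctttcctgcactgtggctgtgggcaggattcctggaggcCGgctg
Arg1: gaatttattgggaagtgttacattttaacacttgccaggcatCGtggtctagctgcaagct

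The next 4 windows had the highest CpG content over the surrounding 301 bp. They lay at Ctcf chr8:108160117-108160177 (plus strand), Gmeb2 chr2:181022243-181022303 (minus strand), Stag1 chr9:100544736-100544796 (plus strand) and Rhob chr12:8507101-8507161 (minus strand). Ctcf encodes CTCF itself, Gmeb2 a DNA-binding factor, Stag1 a cohesin subunit and Rhob a small GTPase.
Ctcf: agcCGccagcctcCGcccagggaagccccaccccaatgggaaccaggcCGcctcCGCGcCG
Gmeb2: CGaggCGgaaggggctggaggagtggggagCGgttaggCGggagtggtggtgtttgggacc
Stag1: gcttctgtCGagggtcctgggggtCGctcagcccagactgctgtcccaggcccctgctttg
Rhob: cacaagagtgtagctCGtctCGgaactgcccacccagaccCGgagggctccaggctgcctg

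The low-CpG windows held 0, 0, 1 and 1 CG in 61 bp, in the order printed, and the high-CpG windows held 6, 4, 2 and 3. Over 301 bp the observed/expected CpG ratio was 0.0598 at Hgd, 0.127 at F10, 0.160 at Hlf and 0.271 at Arg1. It was 1.08 at Ctcf, 0.874 at Gmeb2, 0.868 at Stag1 and 0.855 at Rhob. This ratio compares the number of CG dinucleotides with the number that the C and G content alone would give, and values of 0.6 or more are usual for CpG islands. A match to the CCAAT box was found in the printed windows of Arg1 and Ctcf, and one to the GC box in that of Ctcf.

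Most of these promoters were not far from CTCF. The distance from a CNC peak to the nearest CTCF peak had a median of 410.5 bp (quartiles 154 and 1891) and reached 446112 bp. It was under 500 bp for 1022 CNC peaks (54.6%, interval 52.3 to 56.8), 500 bp to 5 kb for 611 (32.6%, 30.6 to 34.8) and 5 kb or more for 239 (12.8%, 11.3 to 14.4). A CTCF summit lay within 1 kb of the same start for 1116 CNC peaks (59.6%) and a co-bound Rad21 summit for 978 (52.2%). The name "without CTCF" therefore holds for the overlap of called peaks, and for over 1 peak in 2 it does not describe the promoter as a whole.

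**Figure D1:**
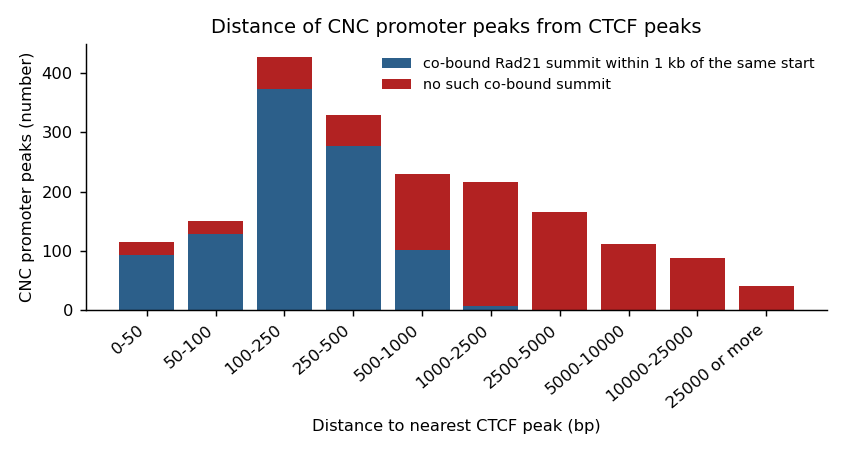
Number of CNC promoter peaks (vertical axis) by distance in bp from the nearest CTCF peak (horizontal axis, bins of unequal width), with bars split by whether a co-bound Rad21 summit lies within 1 kb of the same start. The fullest bin, 100 to 250 bp, holds 428 peaks, 374 of them beside a co-bound summit (a co-bound summit at the same start is hardly possible at the larger distances, by construction).

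For the 1022 CNC peaks under 500 bp from CTCF, the CTCF summit lay a median of 587 bp from the Rad21 summit. The CTCF peak was upstream of the Rad21 summit, in the direction of the gene, for 583 of them (57.0%, 54.0 to 60.0). Most of these CTCF peaks carried cohesin of their own, since 872 (85.3%, 83.0 to 87.4) overlapped another Rad21 peak. The same share over all CTCF peaks was not computed, so 85.3% was not read as particular to these peaks. By the authors' classes of CTCF sites, 606 (59.3%) were cohesin-and-CTCF sites that anchor no predicted loop, 86 (8.41%) were CTCF sites without cohesin, 74 (7.24%) were anchors of loops predicted within topologically associating domains (TADs) and 35 (3.42%) were TAD anchors. The remaining 221 had no class. Over all CTCF peaks these classes took 35.2%, 13.8%, 11.8% and 7.64%. The median CTCF score was 372, against 321 over all CTCF peaks. The score is the −log10 of the q-value of the peak times 10.

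CNC promoter peaks were mostly weak. Strength comes from the same peak calls that chose the members, so it is described without a test. The Rad21 score had a median of 71 (quartiles 50 and 108) and ran from 17 to 787. The co-bound promoter peaks had a median of 216 (113 and 410) and reached 13675, and 4.97% of CNC promoter peaks exceeded that median. The 13246 autosomal CNC peaks more than 1 kb from a start had a median of 64 (46 and 94). The number of fragments at the summit had a median of 37 (28 to 52, range 15 to 205) at CNC promoters, 58 at co-bound promoters and 28 at CNC peaks elsewhere. The local background estimated by the peak caller had medians of 11.03, 10.02 and 7.15 fragments in the same order. The fold, which is fragments over local background with 1 added to both, had medians of 3.15, 5.26 and 3.38. CNC promoter peaks were also narrower than co-bound ones, with median widths of 280 and 575 bp. The part of peak width in the overlap with CTCF was not tested.

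**Figure D2:**
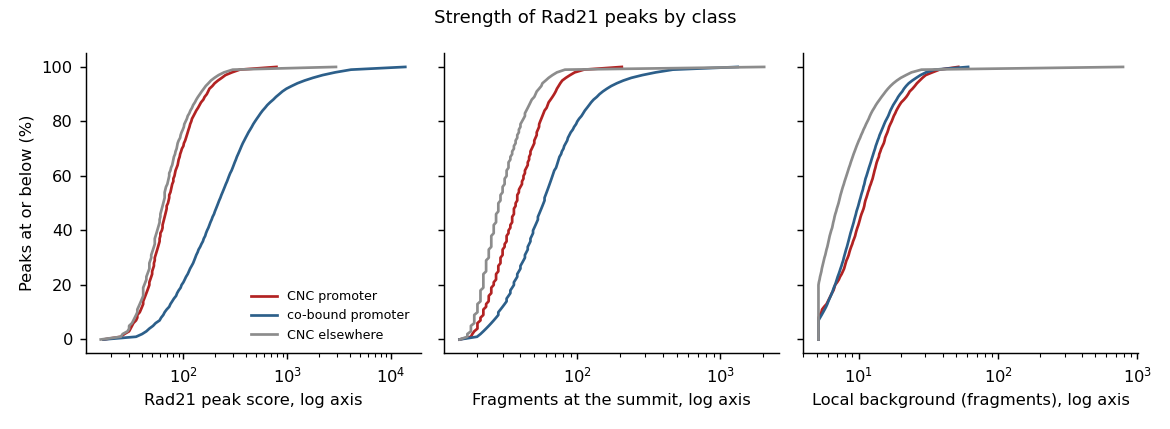
Cumulative share of Rad21 peaks (vertical axis, %) by score, by fragments at the summit and by local background in fragments (horizontal log axes) for CNC promoter peaks, co-bound promoter peaks and CNC peaks elsewhere. The score curve of CNC promoter peaks (median 71) lies beside that of CNC peaks elsewhere (64) and left of co-bound peaks (216), while the background curves of both promoter classes nearly coincide (medians 11.03 and 10.02).

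The score differed little with the distance to CTCF, while fragments and background were lower far from it. The median score was 72 under 500 bp from CTCF, 74 between 500 bp and 5 kb and 62 at 5 kb or more. Fragments at the summit had medians of 39, 41 and 24, the local background of 11.8, 12.1 and 5.37, and the fold of 3.07, 3.10 and 3.59. At 5 kb or more the median background was thus close to the lowest value the caller used, 5.13 fragments. The part of the local background in which weak peaks were called was not tested.

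The strongest CNC promoter peak was at Foxo3, a forkhead factor of fasting and stress responses (ENSMUSG00000048756.4, chr10:41995773-41996520). It had 205 fragments (exact Poisson interval 178 to 235), a score of 787 and a fold of 5.43, with its summit 171 bp downstream of the start and 111 bp between it and the nearest CTCF peak. Tram2, which acts in collagen synthesis at the endoplasmic reticulum, followed with a score of 707, 134 fragments and the highest fold of all members, 7.80. Nr3c2, the mineralocorticoid receptor, had 149 fragments and a score of 534. Klhl17 and Cbx8, a Polycomb subunit, both had a score of 487, with 102 and 132 fragments.

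Klhl17 stood apart in its distance from CTCF: the peak was 30911 bp from the nearest CTCF peak, whereas the other high-scoring peaks named here lay 78 to 743 bp from one. They included 9530008L14Rik (444), Svil (436), BC006779 (428), Gmeb2 (407), Sepx1 (404) and Chd2 (398). Beside Tram2, the highest folds were at Chchd2 (7.41), 9530008L14Rik (7.32), Ddx58 (7.24), Klhl17 (6.81) and Mmp19 (6.64).

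The summits lay more often downstream of the start than upstream. The position was part of the choice of the members and is described without a test. The median position was 103 bp downstream for CNC peaks (quartiles -226 and 392 bp, negative upstream) and 99 bp downstream for co-bound peaks (-125 and 197 bp). The summit was downstream for 63.0% of CNC peaks (60.8 to 65.1) and 64.9% of co-bound peaks (64.1 to 65.8). CNC peaks were spread more widely around the start. From 0 to 300 bp downstream lay 33.8% of CNC and 49.5% of co-bound summits, and from 300 bp upstream to the start 17.6% and 22.1%. From 500 bp to 1 kb lay 19.98% and 7.94% downstream, and 9.88% and 6.22% upstream. The CNC median was farther downstream on 8 of 19 chromosomes, so the medians had no steady order. The wider spread was hardly present among peaks with a fold of at least 4. There the quartiles were -98 and 210 bp for CNC and -101 and 193 bp for co-bound peaks.

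**Figure D3:**
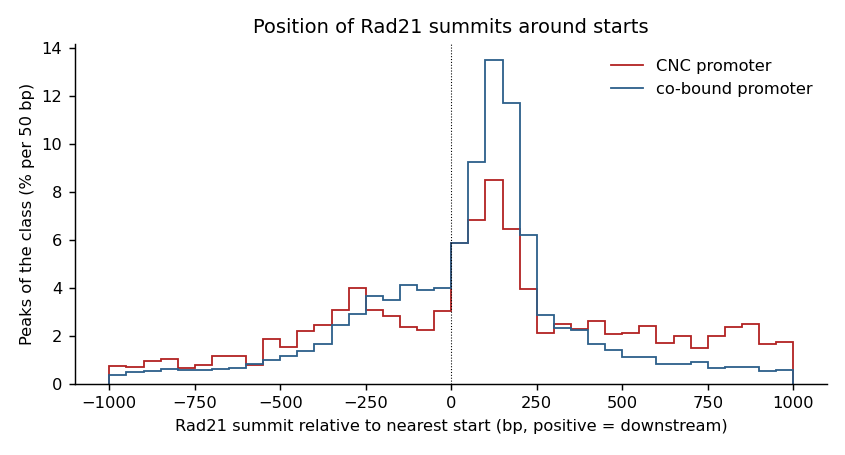
Share of promoter Rad21 summits per 50 bp (vertical axis, %) by position relative to the nearest protein-coding start (horizontal axis, bp, positive downstream) for CNC and co-bound peaks. Both curves peak 100 to 150 bp downstream, at 8.49% for CNC and 13.5% for co-bound summits, and the CNC curve is higher beyond 500 bp downstream.

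The spread around the start went with nearness to CTCF. Of CNC peaks under 500 bp from CTCF, 42.7% had the summit within 300 bp of the start, compared with 60.4% at 500 bp to 5 kb and 65.7% at 5 kb or more. A co-bound Rad21 summit stood within 1 kb of the same start for 85.2% of the nearest class and 17.5% of the middle class. At larger distances such a summit is hardly possible, since a co-bound peak overlaps a CTCF peak that would itself lie near. This decline was therefore not read as a result. A CNC peak also cannot take the bases of a co-bound peak, and 49.5% of co-bound summits lay 0 to 300 bp downstream. The trend in summits within 300 bp of the start is therefore a description. The part of it set by the selection was not tested.

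CNC promoter peaks had fewer CpG dinucleotides than co-bound promoter peaks. In the 301 bp around the summit the observed/expected CpG ratio had a median of 0.507 (quartiles 0.300 and 0.719) for CNC peaks and 0.783 (0.608 and 0.919) for co-bound peaks (two-sided Kolmogorov-Smirnov test, D = 0.387, n = 1872 and n = 12688, adjusted p = 3.72e-220). The GC content had medians of 56.1% and 65.1% (D = 0.384, same test, n = 1872 and n = 12688, adjusted p = 1.96e-216). Both medians were lower for CNC peaks on 19 of 19 chromosomes. The median CpG ratio was 0.602 around all 43968 autosomal starts and 0.217 at CNC peaks elsewhere. A ratio of 0.6 or more was found for 38.0% of CNC peaks, 75.8% of co-bound peaks and 50.1% of starts.

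The gap was also present among peaks of like score. Among peaks with scores of 50 to 108 in both classes, the medians were 0.492 for CNC and 0.732 for co-bound peaks (D = 0.322, n = 961 and n = 2403, adjusted p = 2.10e-63). The CpG content also went with distance from CTCF. The CpG ratio of CNC peaks had a median of 0.557 under 500 bp from CTCF, 0.436 at 500 bp to 5 kb and 0.370 at 5 kb or more. Where CNC was instead taken to mean that no CTCF summit lay within 200 bp of the Rad21 summit, the medians were 0.701 for 4882 peaks and 0.782 for 9678 peaks, so the difference shrank from -0.276 to -0.0812, and that in GC content from -8.97 to -4.65 points.

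**Figure D4:**
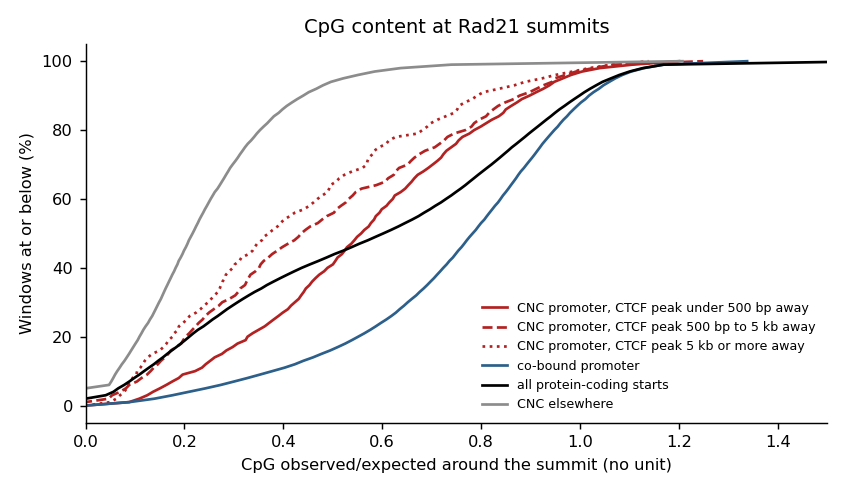
Cumulative share of 301-bp windows (vertical axis, %) by observed/expected CpG ratio (horizontal axis, no unit) for CNC promoter peaks in 3 classes of distance from CTCF, co-bound promoter peaks, all protein-coding starts and CNC peaks elsewhere. The CNC promoter curves lie between CNC elsewhere (median 0.217) and co-bound peaks (0.783), and their medians fall from 0.557 to 0.370 with distance from CTCF.

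Short sequence motifs were counted in the same 301-bp windows. Of 14 motifs other than that of CTCF, searched on both strands, 9 had a 95% interval of the difference between CNC and co-bound peaks that left out 0. A match describes letters and not a bound factor. The GC box GGGCGG of Sp and KLF factors was in 33.7% of CNC windows, 55.9% of co-bound windows and 45.6% of windows around all starts (CNC minus co-bound -22.2 points, interval -24.5 to -19.9). The ETS motif CCGGAAG was in 5.88%, 10.04% and 10.8% (-4.16 points, -5.28 to -2.90), and the YY1 motif AAGATGGCG in 0.962%, 1.79% and 2.18% (-0.828 points). With CNC taken as no CTCF summit within 200 bp, the GC box difference was -8.51 points and the ETS difference -2.50. The YY1 interval included 0 in 7 of 12 alternatives.

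Several motifs of liver factors and of TATA promoters were more frequent at CNC promoter peaks than at co-bound peaks, and each was more frequent still at CNC peaks elsewhere. The C/EBP pattern TTGCNNAA was in 11.2% of CNC and 6.62% of co-bound windows (4.54 points, 3.12 to 6.11), in 8.22% of windows at starts and in 18.2% at CNC peaks elsewhere. The forkhead motif TGTTTAC was in 3.74% and 1.77% (1.97 points, 1.17 to 2.96), with 2.59% at starts and 7.02% at CNC peaks elsewhere. The HNF1 pattern GTTAATNAT was in 14 CNC windows (0.748%, 0.446 to 1.25) and 24 co-bound windows (0.189%). It was in 0.516% of windows at starts, inside the CNC interval, and in 1.73% at CNC peaks elsewhere. TATAAA was in 7.00% of CNC and 3.40% of co-bound windows (3.60 points, 2.48 to 4.88), in 9.19% of windows at starts and in 11% at CNC peaks elsewhere. CCAAT, the core letters of NF-Y sites, was in 28.0%, 19.97%, 33.0% and 34.0% of these 4 sets. The STAT5 pattern TTCNNNGAA was in 6.94%, 5.08%, 6.98% and 9.69%. At TAD and intra-TAD anchors, which are CTCF sites, C/EBP was in 11.6% of windows, forkhead in 3.56% and HNF1 in 0.633%. TATAAA was in 14.1% there, CCAAT in 31.8% and STAT5 in 8.81%. Shares above those of co-bound promoter peaks were thus not limited to CNC peaks. Among CNC promoter peaks these motifs went with low CpG content: below a CpG ratio of 0.4, TATAAA was in 9.46% and the HNF1 pattern in 1.60%, and at 0.4 or more in 5.57% and 0.253%. With CNC taken as no CTCF summit within 200 bp, the differences were smaller, at 0.788 points for TATAAA, 2.60 for CCAAT (8.07 by overlap), 2.97 for C/EBP, 0.783 for forkhead and 0.193 for HNF1. The STAT5 interval included 0 in 5 of 12 alternatives, among them a fold of at least 4, where the value was -1.26 points (-2.89 to 1.48). The forkhead and C/EBP intervals included 0 where CNC peaks were limited to those 5 kb or more from CTCF, and the HNF1 interval with 100 bp on each side of the summit.

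The long CTCF core motif was in 3 CNC windows (0.160%, 0.0545 to 0.470). It was in 3.62% of co-bound windows, 0.635% of windows at all starts and 39.4% of windows at TAD and intra-TAD anchors. CTCF calls were part of the choice of the members, so this difference is a description. The intervals for CREB, E-box, NRF1, HNF4 and ZNF143 motifs included 0. They left out 0 in 7 of 12 alternatives for HNF4 (CNC higher), 4 for NRF1 (CNC lower) and 2 for CREB (CNC higher).

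Promoters with starts on both strands within 1 kb of the summit were slightly less frequent among CNC peaks. They numbered 157 (8.39%, 7.21 to 9.73), compared with 10.6% (10.04 to 11.1) of co-bound peaks, a difference of -2.17 points (-3.47 to -0.734). The share was 11.7% for CNC peaks under 500 bp from CTCF, 5.56% at 500 bp to 5 kb and 1.26% at 5 kb or more. With CNC taken as no CTCF summit within 200 bp, the sign turned (1.60 points). Among peaks with a fold of at least 4 the difference was -0.0478 points (-3.05 to 3.91), and with the first start of each gene it was -1.09 (-2.65 to 0.661).

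CNC promoter peaks often had other CNC peaks nearby. At least 1 other CNC peak lay within 25 kb for 58.6% (56.4 to 60.8) of them, against 43.5% (42.6 to 44.3) of co-bound promoter peaks, a difference of 15.1 points (12.7 to 17.5). The CNC share was 54.4% under 500 bp from CTCF, 69.2% at 500 bp to 5 kb and 49.4% at 5 kb or more, and it was not recomputed under the alternatives. At least 3 lay within that distance for 15.1% and 8.25%. The densest neighborhoods among members held 7 other CNC peaks and were at Bhlhe40, a clock and stress repressor, and at Retsat and Elmod3, which share a promoter region. Lasp1, D17Wsu92e, Rbm47 and Acot1 had 6. Rbm47, an RNA-binding protein of liver and gut, was the nearest gene of 5 members, the most of any gene. In all, 1683 genes were nearest to a member and 165 of them to more than 1.

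Of 21410 autosomal protein-coding genes, 1827 (8.53%) had a CNC peak within 1 kb of any of their starts, 10648 (49.7%) had a co-bound peak and 586 (2.74%) had a CNC and no co-bound peak. A CNC peak 500 bp or more from CTCF stood at 784 genes (3.66%), and one 5 kb or more from CTCF at 220 genes (1.03%). Thus 1241 of the 1827 genes (67.9%) had both kinds of cohesin peak. The gene lists below were read against these shares, which are over all genes, bound by Rad21 or not. They were counted without a test, and the lists were chosen with earlier results of these data known. Genes of near-identical families (CYP, histone and olfactory receptor genes) can lose reads, since only uniquely mapped reads were kept. With CNC taken as no CTCF summit within 200 bp, 21.7% of all genes had a CNC peak, and among peaks with a fold of at least 4, 1.58% had one.

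Genes of liver-secreted plasma proteins often carried a CNC peak: 34 of 86 (39.5%, 29.9 to 50.1), beside 8.53% of all genes. Co-bound peaks stood at 42 (48.8%), close to the 49.7% of all genes, and 24 genes (27.9%) had a CNC and no co-bound peak, beside 2.74% overall. At 500 bp or more from CTCF the count was 22 (25.6%, beside 3.66%), and at 5 kb or more it was 2. It was 44 (51.2%) with CNC taken as no CTCF summit within 200 bp and 5 (5.81%) with a fold of at least 4. Apob, the protein of very-low-density lipoproteins, had the strongest with 116 fragments and a score of 379, 40 bp downstream of its start and 385 bp from CTCF. Ttr, the thyroxine and retinol carrier transthyretin, had 69 fragments (score 227), and Ambp, the precursor of alpha-1-microglobulin, 67 (195). Both were farther from CTCF, at 961 and 4671 bp.

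After these came Hrg (193), Apoc2 (193), F10 (165), Itih2 (163) and Itih3 (157). Hrg encodes histidine-rich glycoprotein, Apoc2 the activator of lipoprotein lipase, and Itih2 and Itih3 heavy chains of inter-alpha-trypsin inhibitors. Over the list the median member score was 72, the same level as over all members (71).

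Genes of amino acid, urea cycle and glucose metabolism had CNC peaks at 18 of 44 (40.9%, 27.7 to 55.6), and at 12 (27.3%) the peak was 500 bp or more from CTCF. With a fold of at least 4 there were 2 (4.55%). Gnmt, which methylates glycine, had 112 fragments (score 347) at 315 bp from CTCF. Arg1 had 56 fragments (score 192) at 20200 bp from CTCF, so its peak was far from any called CTCF site. Hgd (50 fragments, score 113) lay 4213 bp and Hal, the histidine ammonia-lyase gene (53 fragments, score 109), 3307 bp from CTCF.

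Hepatocyte transcription factor genes had CNC peaks at 16 of 49 (32.7%, 21.2 to 46.6), and 38 had a co-bound peak. At 7 (14.3%) the CNC peak was 500 bp or more from CTCF. The count was 10 (20.4%, beside 7.00% of all genes) with the first start of each gene, 28 (57.1%, beside 21.7%) with no CTCF summit within 200 bp and 4 (8.16%, beside 1.58%) with a fold of at least 4. After Foxo3, the highest scores were at Nr3c1, the glucocorticoid receptor (371, 157 fragments), and Tcf7l2, a Wnt pathway factor (309, 119 fragments). Hnf4a, a central hepatocyte factor, had 79 fragments (score 236), 187 bp downstream of its start and 177 bp from CTCF. Nr1h4, the bile acid receptor FXR, had 58 fragments (score 172) at 16296 bp from CTCF. Stat5a (226), Foxo1 (174) and Srebf1 (135), factors of growth hormone, insulin and sterol signaling, were other members with scores above 108.

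**Figure D5:**
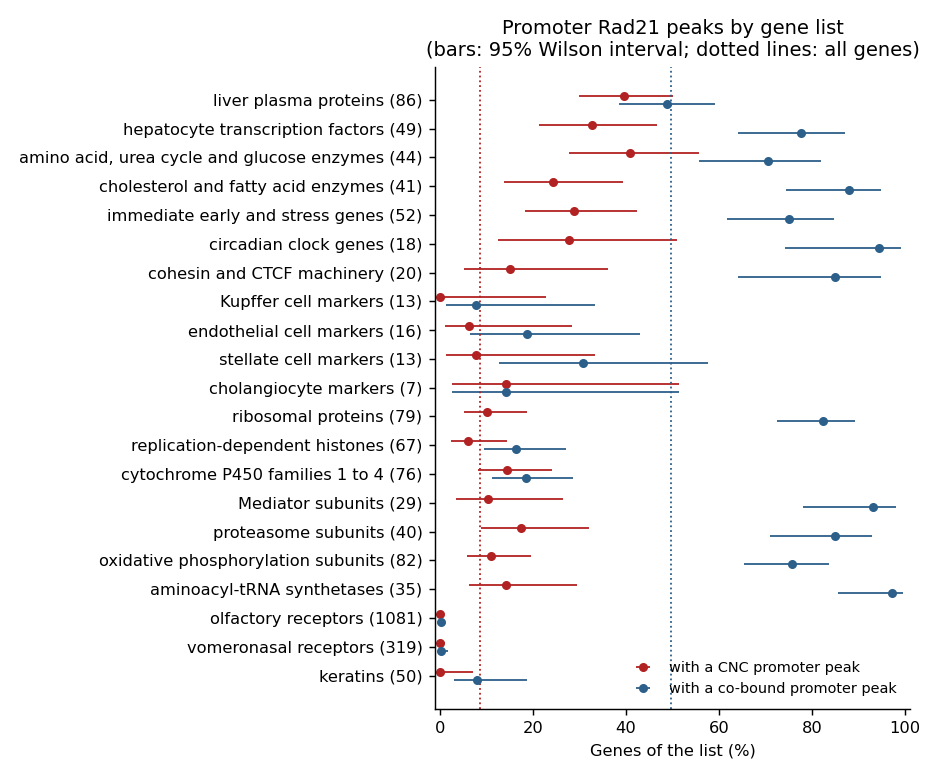
Share of the genes of each list (horizontal axis, %) with a CNC or a co-bound Rad21 peak within 1 kb of a start, with the number of genes in parentheses, bars for 95% Wilson intervals and dotted lines for all genes (8.53% and 49.7%). Liver plasma proteins (39.5%) and amino acid, urea cycle and glucose enzymes (40.9%) have the highest CNC shares, while aminoacyl-tRNA synthetases (97.1%) have the highest co-bound share.

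Cholesterol and fatty acid enzyme genes were mostly co-bound (36 of 41) and had CNC peaks at 10 (24.4%, 13.8 to 39.3), of which 3 were 500 bp or more from CTCF. With summits within 500 bp of a start the count was 4 (9.76%, beside 6.07% of all genes), and with CNC taken as no CTCF summit within 200 bp it was 23 (56.1%, beside 21.7%). Immediate early and stress genes had CNC peaks at 15 of 52 (28.8%, 18.3 to 42.3), and none of these peaks had a fold of at least 4. At 500 bp or more from CTCF the count was 8 (15.4%, beside 3.66% of all genes). With no CTCF summit within 200 bp it was 29 (55.8%, beside 21.7%). Junb, an AP-1 subunit, had 147 fragments and a score of 350. Rhob (206), Zfp36l1 (163), Dusp1 (140), Socs2 (128) and Zfp36 (119) followed. Dusp1 and Socs2 act in signaling feedback, and Zfp36 and Zfp36l1 in messenger RNA decay.

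Of the circadian clock genes, 5 of 18 (27.8%, 12.5 to 50.9) had a CNC peak and 17 a co-bound peak. The count was 1 (5.56%) both at 500 bp or more from CTCF, beside 3.66% of all genes, and for scores within the quartiles of the members, beside 4.58%, and it was 10 (55.6%, beside 21.7%) with no CTCF summit within 200 bp. Bhlhe40 had 106 fragments (score 253), Hlf 56 (165) and Nfil3, a repressor of clock-output genes, 74 (120). Of the genes for cohesin and its partners, 3 of 20 (15.0%, 5.24 to 36.0) had one, an interval that included the 8.53% of all genes, and with no CTCF summit within 200 bp the count was 12 (60%, beside 21.7%). The 3 genes were Stag1 (108 fragments, score 178), Ctcf (53, score 134) and Esco2, a cohesin acetyltransferase (45, score 117). The Ctcf summit was at -332 bp from the start and 99 bp from a CTCF peak.

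Cytochrome P450 genes of families 1 to 4 had CNC peaks at 11 of 76 (14.5%, 8.28 to 24.1), an interval that included 8.53%. Co-bound peaks stood at 14 (18.4%). At 7 (9.21%, beside 3.66% of all genes) the CNC peak was 500 bp or more from CTCF. With no CTCF summit within 200 bp the CNC count was 14 (18.4%, beside 21.7%). With a fold of at least 4 it was 1 (1.32%, beside 1.58%). Housekeeping lists were mostly co-bound. CNC and co-bound peaks stood at 8 and 65 of 79 ribosomal protein genes, 9 and 62 of 82 oxidative phosphorylation genes, and 7 and 34 of 40 proteasome genes. They stood at 5 and 34 of 35 aminoacyl-tRNA synthetase genes and at 3 and 27 of 29 Mediator genes. The CNC shares of these 5 lists ran from 10.1% to 17.5%, and each interval included 8.53% except that for proteasome genes, which began at 8.75%. With CNC taken as no CTCF summit within 200 bp, the shares of the 5 lists were 32.5% to 37.1%, above the 21.7% of all genes. Only 49.7% of all genes had a co-bound peak, while these lists were mostly co-bound. The comparison therefore does not separate CNC peaks from Rad21 binding at all, and shares among bound genes were not computed. Replication-dependent histone genes had CNC peaks at 4 of 67 (5.97%, 2.35 to 14.4), an interval that included 8.53%. With a fold of at least 4 the count was 3 (4.48%, beside 1.58% of all genes).

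Markers of other liver cells had CNC peaks at shares whose intervals all included the 8.53% of all genes, and co-bound peaks were few as well. None of 13 Kupffer cell markers had a CNC peak, which allows a share of up to 23.1% (3 genes), and 1 had a co-bound peak. Of 16 endothelial markers only Tek, a vascular receptor kinase, had a CNC peak (22 fragments, score 60), and 3 had a co-bound peak. Of 13 stellate cell markers only Lhx2 did (23 fragments, score 52), and 4, Lhx2 among them, had a co-bound peak. Of 7 cholangiocyte markers only Sox9 did (76 fragments, score 117), and it also had the only co-bound peak. Gene families with few or no members active in liver had none: 0 of 1081 olfactory receptor genes, which by the same limit of 3 genes allows up to 0.278%, 0 of 319 vomeronasal receptor genes (up to 0.940%) and 0 of 50 keratin genes (up to 6%).

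The peaks nearest to the limits of the selection show how fine its lines were. Just inside 1 kb from a start were peaks at Iqgap3 (1000 bp downstream, score 34), Hnrnpa2b1 (1000 bp downstream, score 98) and Synj2 (at -999 bp, score 88). Just outside were peaks at Reep6 (1001 bp downstream, score 116), Fscn1 (at -1001 bp, score 40) and Arid2 (1002 bp downstream, score 119). At Sap30l (score 78), Nlgn2 (55) and Wac (91) the Rad21 peak adjoined a CTCF peak, with 0 bp between them. At Aes (36) and E130208F15Rik (49) it overlapped one by 4 bp and so counted as co-bound. Of all members 21 lay within 10 bp of a CTCF peak, and 84 co-bound promoter peaks shared under 50 bp with one.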

How the data were processed

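ChIP-seq was done on livers of male CD-1 mice. Per the study's methods, the authors pooled the reads of each factor, mapped them to mm9 with Bowtie2, kept uniquely mapped reads and called peaks with MACS2. Blacklisted regions, and peaks that consisted only of PCR duplicates, were taken out. The deposited columns hold a score (10 times the −log10 q-value, cut to a whole number), a fold ratio over local background, and the −log10 p-value and q-value of each summit. Another deposited list gives the authors' classes of CTCF sites. No values per library and no read totals were used here, so error between livers could not be computed.

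Fragments and background at each summit were solved from the deposited fold and −log10 p-value, and a whole number was obtained for 99.997% of Rad21 peaks (within 0.01 in −log10 p). Starts were 45974 distinct positions of protein-coding transcripts in GENCODE vM1 (43968 on autosomes). Composition and 15 motifs were read in 301 bp of NCBIM37 around each summit. CNC and co-bound promoter peaks were compared by two-sided Kolmogorov-Smirnov tests (asymptotic, Benjamini-Hochberg adjusted over 3 tests, of which that of position is not reported because position was part of the choice) in SciPy 1.17.1, checked on simulated data. Other comparisons used 95% Wilson and Newcombe intervals, and a count of 0 was taken to allow up to 3. Python 3.11.15, pandas 2.3.3, statsmodels 0.14.6, pysam 0.24.0 and samtools 1.23.1 were used.

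Named genes were the 12 members of highest score, the 6 of highest fold, up to 8 genes per functional list above the upper quartile of member scores, every cell-type marker with a member, and the 3 peaks on each side of each limit. Some genes that this rule names are not reported here. Genes with 7 or 6 neighboring CNC peaks were named after their values were seen. The members and the gene lists were chosen with earlier results of these data known. Alternatives for the overlap rule, the distance to a start, score, fold, starts and window length were computed, and those of scores within the members' quartiles and of no CTCF peak within 5 kb were chosen after seeing the data.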

Additional observations from a re-analysis of the deposited data

Results flagged for a closer look

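Chromosome X was left out of the selection and also held CNC promoter peaks. There, 58 of 298 promoter Rad21 peaks were CNC (19.5%, 95% Wilson interval 15.4 to 24.3), beside 12.9% on the autosomes. Their median score was 77. All livers were male, and an effect of the X copy number on the Rad21 and CTCF calls was not tested. No control library was analysed here, and the signal drew attention because these peaks enter no comparison above. The highest scores were at Sh3bgrl (191), Enox2 (182) and Lamp2 (177).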

How the results depend on the processing

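Peaks that an alternative no longer counted as CNC for their distance from CTCF joined the comparison group. The CpG and GC differences kept their sign and their call under every alternative computed, but that in GC content (-8.97 points) was -4.65 with no CTCF summit within 200 bp and -5.98 for scores within the members' quartiles. Motifs other than the CTCF core whose interval left out 0 (9 of 14) numbered 6 to 11. The CNC share of promoter Rad21 peaks (12.9%) was 33.5% with no CTCF summit within 200 bp, 5.84% with no CTCF peak within 500 bp and 1.64% within 5 kb, 10.8% and 14.3% for starts within 500 bp and 2 kb, 10.5% for scores of at least 50, 28.6% for scores within the members' quartiles, 3.19% for folds of at least 4, 11.5% with the first start of each gene and 14.4% with 1 peak per gene. The share with starts on both strands (8.39%) was 11.3% with no CTCF summit within 200 bp, 4.35% with no CTCF peak within 500 bp, 1.26% within 5 kb, 6.24% for starts within 500 bp, 10.4% for folds of at least 4 and 10.1% with the first start of each gene. Its difference from co-bound peaks turned to 1.60 points with no CTCF summit within 200 bp, and that of the STAT5 motif to -1.26 points for folds of at least 4, where its interval included 0. List genes with a CNC peak (151) numbered 289 with no CTCF summit within 200 bp, 74 and 9 with no CTCF peak within 500 bp and 5 kb, 27 for folds of at least 4 and 81 for scores within the members' quartiles. The median score was 154.5 for folds of at least 4, by construction. The difference in median position (4 bp, given without a test) turned to -12.5 bp with no CTCF peak within 500 bp, -30 bp within 5 kb, -29 bp for starts within 500 bp and -4 bp with the first start of each gene. It was 3 bp for folds of at least 4, 19 bp with no CTCF summit within 200 bp and 28.5 bp for starts within 2 kb. The cause was not tested. No paired analysis was possible because each list pools the livers of a factor, and no library could be left out for the same reason. The sample labels also name no animal for both factors, whereas the paper describes matched CTCF and Rad21 datasets. Whether CTCF lay below the caller's threshold at these sites was not tested.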
